A study of Mus musculus with 37 samples.

Results

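Mammary fibroblasts grown together with macrophages were compared with mammary fibroblasts grown alone, in 5 co-culture and 5 mono-culture libraries collected at day 7. These are 10 of the 37 libraries of the series and of its 21 fibroblast libraries, and they were chosen by the organ and culture given in the sample labels. Gene expression was measured by sequencing the 3′ ends of polyadenylated RNA in bulk. In both groups the fibroblasts came from the mammary fat pad of BALB/c mice aged 8 weeks, with tissue of 2 females pooled per biological replicate. They were expanded on collagen I in DMEM with serum and antibiotics, depleted with beads of epithelial (EpCAM-bearing) and immune (CD45-bearing) cells, and seeded again. Macrophages for the co-cultures were grown from bone marrow of BALB/c females in medium conditioned by L929 cells, a line that secretes the growth factor CSF1. Macrophages sorted from mammary co-cultures at day 7 (4 libraries, with an age of 8 weeks in the labels) served only to gauge macrophage transcripts. Fibroblasts of both groups were sorted as live cells without the macrophage proteins F4/80 and CD11b at their surface, so no fibroblast protein was selected for and the labels call them non-immune stromal cells. Lung fibroblasts (3 co-cultures, 3 mono-cultures) and mesometrial fat fibroblasts (3 co-cultures, 2 mono-cultures) from mice of the same strain and age served only to ask whether the mammary response differed between organs. The title of lung mono-culture 3 names lung, but its source and tissue labels name the mammary fat pad, and it was kept as lung.

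Fibroblasts build and remodel the collagenous matrix of a tissue, and macrophages clear debris and release signals to which fibroblasts respond. In general, fibroblasts provide CSF1, which keeps macrophages alive, and macrophages provide platelet-derived growth factors for fibroblasts. Macrophage-derived interleukin 1 and tumour necrosis factor act on fibroblasts through NF-kB, a transcription factor that drives chemokine and acute-phase genes together with its own inhibitors. In the mammary gland, stromal fibroblasts lie around the ducts within fat, where macrophages are also resident.

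Library totals ran from 3304605 to 6256880 counts in the 10 mammary libraries. Levels are given as CPM, the count scaled to the effective size of its library, and 3 counts made 0.479 to 0.908 CPM. The 12 fibroblast markers, among them collagen genes and Thy1, were all detected and summed to 39754 to 59119 CPM in co-culture and 35779 to 41339 CPM in mono-culture. The epithelial keratin genes Krt8 and Krt14 stayed under 1 CPM in every library, while Krt19, a keratin of simple epithelia and mesothelium, ranged from 18.7 to 132 CPM in co-culture and from 11.3 to 41.5 CPM in mono-culture (adjusted p = 0.0740). The 8 measured epithelial and keratinocyte markers, of which 6 were tested and 0 called, summed to 24.7 to 139 CPM in co-culture and 16.5 to 44.7 CPM in mono-culture. Their mean log2 level was higher in co-culture in 5 of 5 same-numbered pairs (exact paired p = 0.0625, exact two-sided permutation p = 0.127). The part of epithelial cells in the results was not tested. Macrophage transcripts were present despite the sort. The 23 measured macrophage markers summed to 786 to 2362 CPM in co-culture and 37.0 to 695 CPM in mono-culture, where library 1 held the 695 CPM and the next highest library 66.5 CPM. Set against the level of the same markers in macrophages sorted from mammary co-cultures, the macrophage share was 1.43% ± 0.81 in co-culture and 0.164% ± 0.315 in mono-culture (SD, n = 5 each). The mean marker level, as log2(CPM + 0.5), was 4.24 ± 0.85 in co-culture and 0.98 ± 1.43 in mono-culture (exact two-sided permutation p = 0.0159). Keeping same-numbered libraries paired gave an exact p of 0.0625, the smallest that 5 pairs allow. Itgam, which encodes the sort marker CD11b, was at 11.9 ± 9.35 CPM in co-culture and 1.34 ± 2.52 CPM in mono-culture (SD, n = 5 each; adjusted p = 0.0614, with the replicate number as a block 0.0376). Adgre1, which encodes F4/80, was at 8.21 ± 5.65 CPM in co-culture and 1.03 ± 2.05 CPM in mono-culture (SD, n = 5 each; adjusted p = 0.0658, with the block 0.0494).

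Co-culture libraries 2 and 4 stood apart from the other 8. On the main axis of variation among the 10 libraries, which held 49.6% of the variance, they scored 75.8 and 109, and the other libraries scored between -47.1 and 8.98. Of 3523 genes with a median of at least 50 CPM, 93 in co-culture 2 and 148 in co-culture 4 were under 10% of their median, against 21 to 41 in the other mammary libraries. These shared 86 genes, which is 92.5% of the genes low in co-culture 2 and 58.1% of those low in co-culture 4. H3f3b, a gene for a widely used histone, for example, had 269, 10.1, 258, 6.97 and 386 CPM in co-culture, against 245, 241, 257, 251.8 and 350.3 CPM in mono-culture (values run from library 1 to library 5 throughout). The last 300 bases of transcripts low in co-cultures 2 and 4 had a median GC content of 36.3% and 35.3%, against 46.0% for all 3523 genes. The median GC content was 47.0% among genes higher in co-culture, 45.0% among genes lower and 42.7% among all genes tested. A fit with the replicate number as a block called 230 genes higher and 142 lower, and with an offset for GC content added to it 248 and 171. Of the markers of other cells, Schwann and glial markers such as Sox10 summed to 99.9 to 796 CPM in co-culture and 67.8 to 503 CPM in mono-culture, with the 796 CPM in co-culture 4. The 9 mesothelial markers, of which 0 were called, summed to 79.6 to 140 CPM in co-culture and 31.1 to 54.8 CPM in mono-culture, so every co-culture was above every mono-culture. The keratin Krt19 is one of them. Their mean log2 level differed by 0.25 (exact two-sided permutation p = 0.627), and their part in the results was not tested. Of skeletal muscle markers 4 were tested and 0 called.

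**Figure D1:**
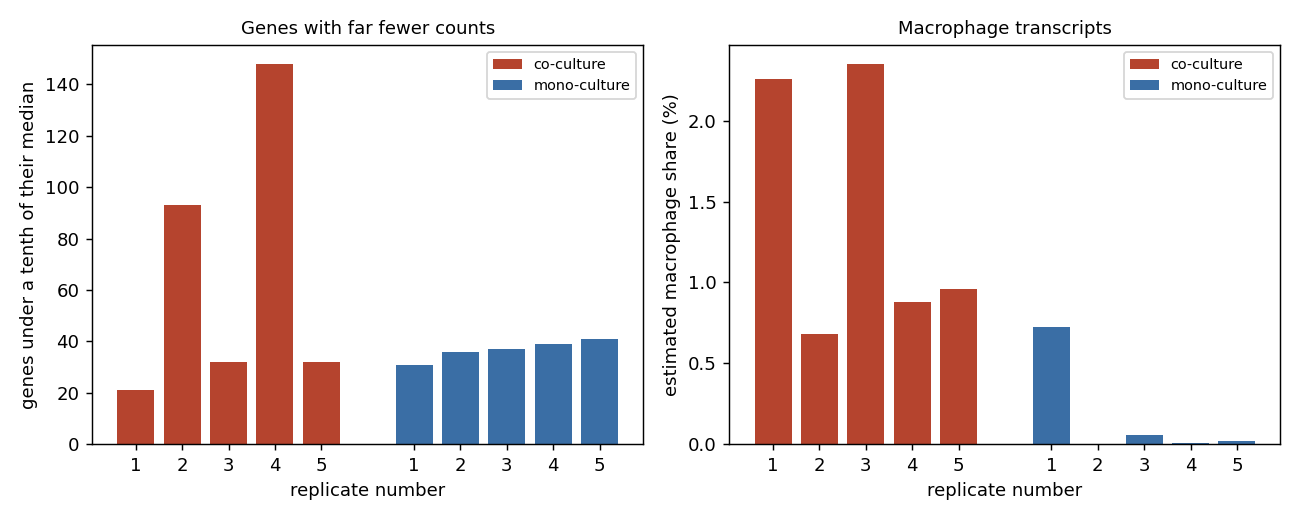
Left, genes at under 10% of their median level (count, of 3523 genes with a median of at least 50 CPM) in each mammary library; right, the estimated macrophage share (%) in each library. Bars are single libraries, co-culture in red on the left of each panel and mono-culture in blue on the right: co-cultures 2 and 4 have the most low genes (93 and 148), co-cultures 1 and 3 the highest macrophage share, and mono-culture 1 (0.725%) the highest share without added macrophages.

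Co-culture changed 453 of 12421 genes tested (edgeR's quasi-likelihood test, Benjamini-Hochberg adjusted p under 0.05). Of these, 293 genes were higher in co-culture, which is 2.36% of the genes tested, and 160 were lower, which is 1.29%. The co-culture and mono-culture libraries did not overlap for 217 of the higher and 131 of the lower genes. Over all genes tested, called or not, the groups were apart for 343 genes with co-culture above (2.76%) and 247 with co-culture below (1.99%). A change of at least 1 on the log2 scale was reached by 204 of the higher and 40 of the lower genes. Of the higher genes, 105 were macrophage-rich, meaning that macrophages from mammary co-culture held over 5 times the level of mono-cultured fibroblasts; among all genes tested 700 were, and among the lower genes 5. Changes are given as log2 of co-culture over mono-culture with their standard errors. The standard errors and p-values rest on the spread within groups over all 21 fibroblast libraries, which were fitted together. Where adding the replicate number as a block, or leaving out 1 library, ended a call of a named gene, the adjusted p of that fit stands beside it, the highest one where several libraries did so. Without libraries 2 and 4 of both groups, 92 of 12354 genes were higher (0.745%) and 51 lower (0.413%), and all 291 higher and 160 lower genes that could still be tested kept their sign. Of the 60 named genes called, 31 still passed in that smaller fit and all 60 kept their sign. The 29 that did not pass it included C1qa, C1qb, Car9, Ccn1, Col1a1, Col6a2, Ctsk, Cxcl10, Cxcl16, Egln3, Fabp4, Fabp5, Grem1, Gsta4, Gsto1, Il1b, Il1rn, Inhbb, Lama2, Loxl2, Mgp, Mmp9, Nfkbia, Plod2, Slc16a3, Spon2, Trp53i11 and Tyrobp. With the replicate block, in which same-numbered cultures are compared, and without libraries 2 and 4, 356 genes were higher and 239 lower.

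Among genes that averaged at least 20 CPM, did not overlap between the groups and were not macrophage-rich, the largest rise was that of Rarres2 (chr6:48569696-48572789 of the mouse build GRCm38), the gene for chemerin, a secreted attractant of macrophages and dendritic cells. It had 999, 3019.9, 3280.4, 3116 and 1908 CPM in co-culture, against 161, 407, 476, 494 and 452 CPM in mono-culture. The lowest co-culture library was above the highest mono-culture library, at 6.19-fold overall (log2 change 2.63 ± 0.37, adjusted p = 0.000868). Vwa1, which encodes a matrix protein with a von Willebrand factor domain, had 26.4, 48.7, 85.5, 43.5 and 41.96 CPM in co-culture, against 7.60, 9.49, 8.91, 10.9 and 9.92 CPM in mono-culture. It rose 5.22-fold with no overlap (log2 change 2.39 ± 0.28, adjusted p = 0.000276). Cox4i2, the hypoxia-responsive isoform of a cytochrome c oxidase subunit, had 38.7, 80.02, 53.2, 70.8 and 57.7 CPM in co-culture, against 7.60, 19.2, 4.13, 12.9 and 16.01 CPM in mono-culture. It rose 5.00-fold, with every co-culture above every mono-culture (log2 change 2.32 ± 0.35, adjusted p = 0.000900). Dio3, the enzyme that inactivates thyroid hormone, had 80.9, 51.6, 62.8, 35.7 and 48.6 CPM in co-culture, against 14.5, 14.6, 10.2, 7.77 and 10.8 CPM in mono-culture. It rose 4.81-fold (log2 change 2.27 ± 0.31, adjusted p = 0.000868). The limit required separate groups of every gene named under it, so their separation is not a further result.

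H19, an imprinted long non-coding RNA, had 2099.9, 681, 2843, 513 and 1797 CPM in co-culture, against 295, 320.0, 308, 143 and 508 CPM in mono-culture. Co-cultures 2 and 4 were the lowest of their group and came close to the highest mono-culture (log2 change 2.33 ± 0.53, adjusted p = 0.0187; 0.0506 without mono-culture 4); without libraries 2 and 4 of both groups the log2 change was 2.63 (adjusted p = 0.0385). Selenbp1, a selenium-binding protein gene, rose 4.40-fold, Ecscr, a surface protein gene known from endothelial cells, 3.44-fold and Cemip, which is needed to break down hyaluronan, 3.42-fold (adjusted p = 0.00198, 0.00141 and 0.00228). With the replicate block Cemip did not pass (adjusted p = 0.0595). Ackr3, a receptor that removes the chemokine CXCL12, had 110.0, 49.4, 131, 59.8 and 79.7 CPM in co-culture, against 20.6, 19.2, 33.02, 25.98 and 27.5 CPM in mono-culture. It rose 3.40-fold with no overlap (log2 change 1.77 ± 0.26, adjusted p = 0.000868). Its ligand gene Cxcl12 was uncalled at 1370.0 ± 1285 CPM in co-culture and 1525 ± 563 CPM in mono-culture (SD, n = 5 each; adjusted p = 0.933). Spon2, a secreted matrix protein gene, rose 3.33-fold (log2 change 1.74 ± 0.42, adjusted p = 0.0255), and its adjusted p reached 0.0728 without mono-culture 5.

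**Figure D2:**
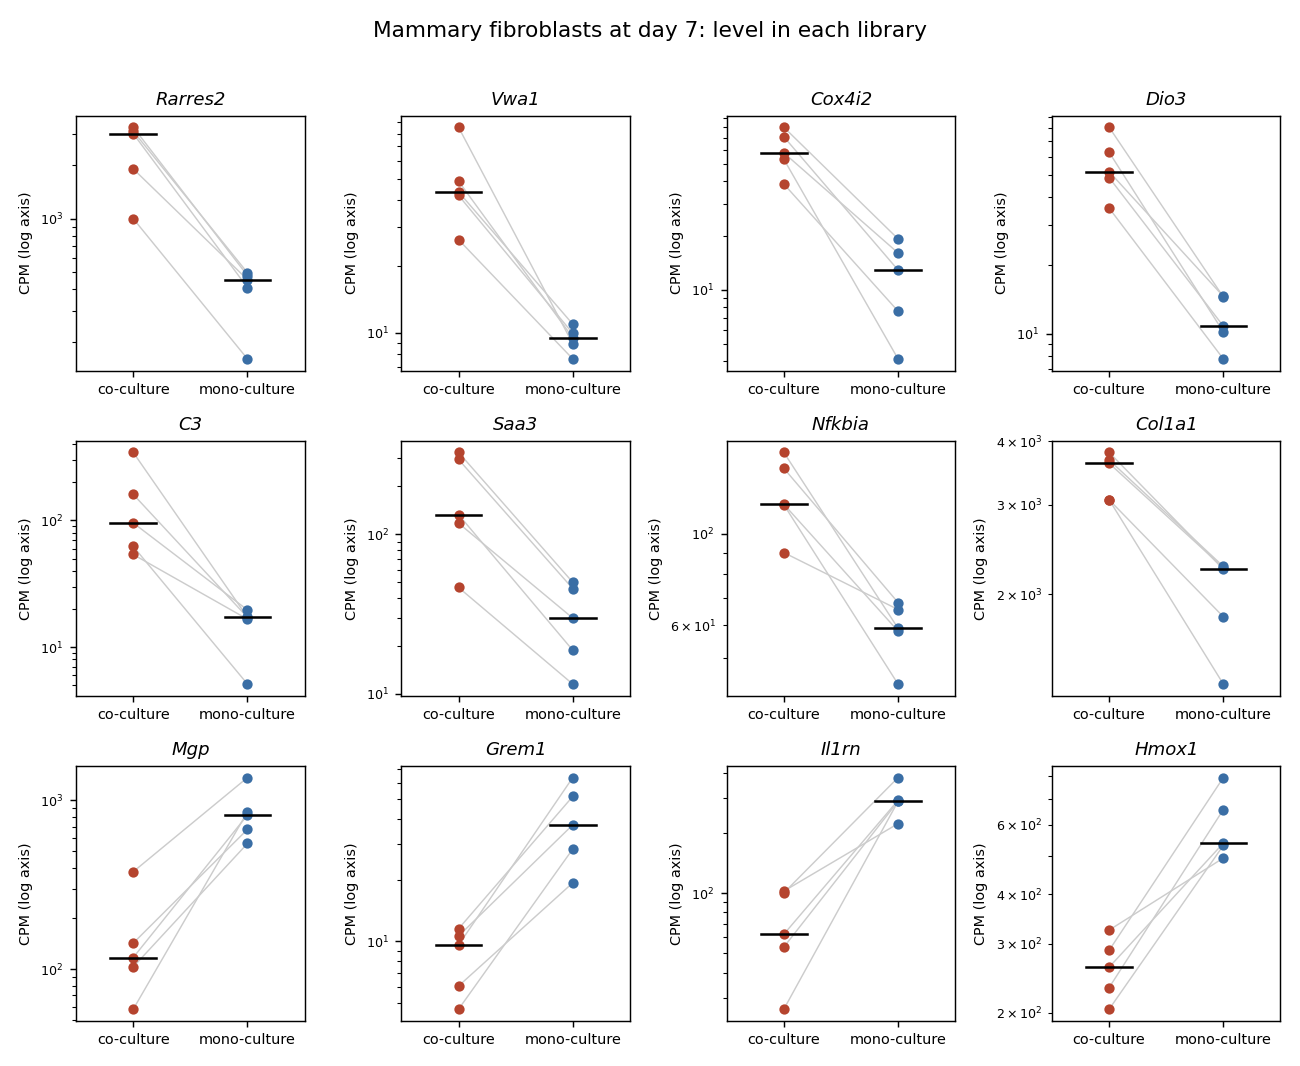
Level of 12 genes in each mammary library, in CPM on log axes that differ between panels. Points are libraries, co-culture (red) left of mono-culture (blue), black bars are medians and grey lines join libraries with the same replicate number; in the top row every co-culture lies above every mono-culture and in the bottom row (Mgp, Grem1, Il1rn, Hmox1) below, while for Saa3 co-culture 2 lies within the mono-culture range.

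Under the same limits on level and overlap, the largest fall was that of Mgp (chr6:136872435-136875823), matrix Gla protein, an inhibitor of calcification that also binds bone morphogenetic proteins (BMPs). Mgp had 378, 117, 57.97, 143 and 103 CPM in co-culture, against 1365, 819.8, 855, 674 and 556 CPM in mono-culture. The highest co-culture was below the lowest mono-culture (log2 change -2.41 ± 0.39, adjusted p = 0.00204). Grem1, which encodes the BMP antagonist gremlin 1, had 9.60, 10.6, 11.5, 4.64 and 6.04 CPM in co-culture, against 63.7, 37.4, 51.5, 28.4 and 19.4 CPM in mono-culture. The groups did not overlap (log2 change -2.23 ± 0.46, adjusted p = 0.0104), and without libraries 2 and 4 the log2 change was -2.27 (adjusted p = 0.0990). Il1rn, the natural antagonist of the interleukin 1 receptor, had 102, 62.2, 26.3, 53.7 and 100.2 CPM in co-culture, against 222, 291, 287, 288 and 378 CPM in mono-culture. It fell by 2.08 on the log2 scale (adjusted p = 0.0214; 0.0540 without mono-culture 5).

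Lmcd1, a LIM-domain regulator of transcription, had 11.2, 18.5, 10.2, 10.7 and 8.15 CPM in co-culture, against 22.4, 39.3, 57.4, 46.1 and 51.2 CPM in mono-culture. Its groups were separate, as the limit required, and the log2 change was -1.87 ± 0.23 (adjusted p = 0.000397). Nrp2, a co-receptor for semaphorins and vascular endothelial growth factors, had 23.3, 20.7, 30.1, 31.6 and 30.2 CPM in co-culture, against 67.98, 76.7, 68.01, 72.1 and 67.4 CPM in mono-culture. The fall of Nrp2 (log2 change -1.38 ± 0.20, adjusted p = 0.000868) stood beside a level of 423 CPM in macrophages from mammary co-culture, above that of the fibroblasts. Inhbb, the beta B subunit of inhibin and activin, fell by 1.21 and Uap1l1, a relative of a sugar nucleotide enzyme, by 1.73 on the log2 scale (adjusted p = 0.00357 and 0.000412). A pair of glutathione transferase genes fell with them, Gsto1 (log2 change -1.44 ± 0.29, adjusted p = 0.00942) and Gsta4 (log2 change -1.77 ± 0.40, adjusted p = 0.0177; with the replicate block 0.0504).

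Among 24 lists of genes for cell programmes, those with the most members higher were NF-kB feedback and acute-phase genes (6 of 20 tested), collagens (4 of 20), cytokines and chemokines (4 of 25) and glycolysis and hypoxia genes (4 of 25). Lysosome and phagocytosis genes had the most lower (5 of 24). Across all genes tested 2.36% were higher and 1.29% lower, and the median log2 change was 0. Members and lists were chosen with earlier results of these data known, so the counts describe the lists and do not test them.

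**Figure D3:**
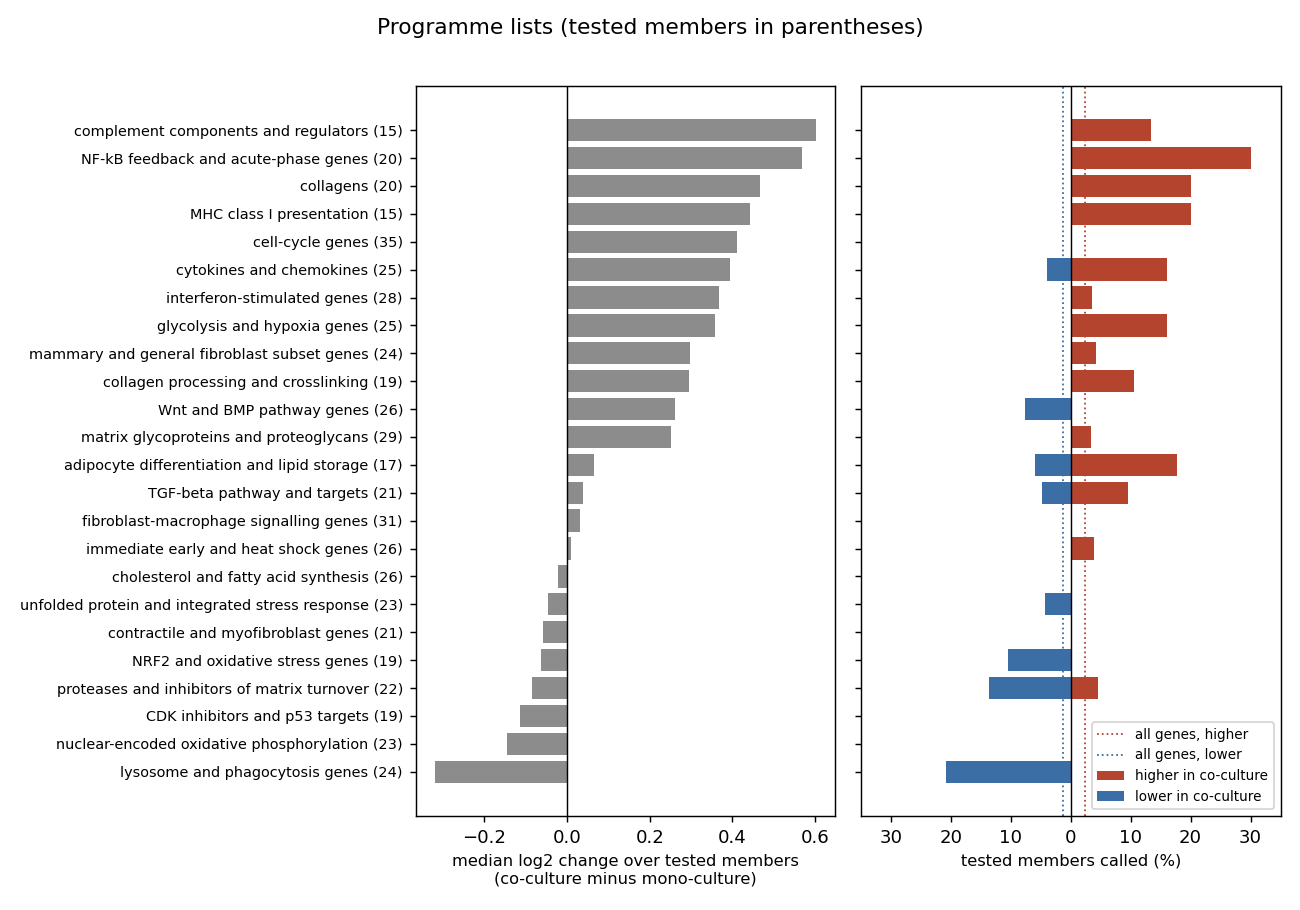
Left, median log2 change (co-culture minus mono-culture) over the tested members of each programme list; right, the percentage of tested members called higher (red, to the right) or lower (blue, to the left), with dotted lines at the percentages for all genes tested (2.36 and 1.29). Complement genes (0.60) and NF-kB feedback and acute-phase genes (0.57) have the highest medians and lysosome and phagocytosis genes (-0.32) the lowest. The lists were chosen with earlier results of these data known.

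Collagen genes, which encode the fibres of the matrix, were higher for 4 of 20 members and lower for 0, with a median log2 change of 0.47. Col1a1, one chain of the main fibrillar collagen, had 3066, 3801, 3067, 3673 and 3619 CPM in co-culture, against 1805, 2238, 1330.1, 2267 and 2254 CPM in mono-culture. Each co-culture exceeded each mono-culture, at 1.74-fold (log2 change 0.80 ± 0.19, adjusted p = 0.0240). Col6a2, of the microfibrillar collagen VI, had 1520.1, 1258, 1095, 1043 and 1544 CPM in co-culture, against 894, 961, 548, 774 and 918 CPM in mono-culture. Its rise was 1.58-fold (log2 change 0.66 ± 0.16, adjusted p = 0.0300). Col5a1, which helps to set fibril diameter, rose 1.60-fold (log2 change 0.68 ± 0.17, adjusted p = 0.0333; with the replicate block 0.0512). Col12a1, a collagen on fibril surfaces, was at 169 ± 77.7 CPM in co-culture and 69.9 ± 30.4 CPM in mono-culture (SD, n = 5 each; log2 change 1.27 ± 0.35, adjusted p = 0.0495). Col1a2, the most abundant uncalled member, had 10961, 9312, 14117, 8250.2 and 10812 CPM in co-culture, against 7786, 7319, 9236, 7881 and 6726 CPM in mono-culture. Its groups overlapped and it did not pass (adjusted p = 0.178). None of the 4 was macrophage-rich. Leaving out 1 library in turn ended each of these calls: the highest adjusted p was 0.0604 without mono-culture 3 (Col1a1), 0.0707 without co-culture 1 (Col6a2), 0.0824 without mono-culture 3 (Col5a1) and 0.133 without co-culture 2 (Col12a1). The call of Col12a1 ended in 8 of 10 such fits. Without libraries 2 and 4, the list had 2 members higher and a median of 0.61.

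Enzymes that modify and crosslink collagen were higher for 2 of 19 members. Plod2, which hydroxylates lysines for stable crosslinks, had 734, 507, 1143, 421 and 452 CPM in co-culture, against 460.4, 234, 246, 162 and 202 CPM in mono-culture. Co-cultures 4 and 5 lay below mono-culture 1, and the log2 change was 1.32 ± 0.28 (adjusted p = 0.0137). Loxl2, a lysyl oxidase, rose 1.76-fold (log2 change 0.82 ± 0.21, adjusted p = 0.0316; 0.0886 without mono-culture 5), while the collagen chaperone gene Serpinh1 was uncalled at 0.21 (adjusted p = 0.504). Of 29 matrix glycoprotein and proteoglycan genes only Lama2, a laminin chain of basement membranes, passed. Lama2 had 63.4, 74.8, 73.7, 92.3 and 50.4 CPM in co-culture, against 43.4, 45.3, 43.02, 39.1 and 23.01 CPM in mono-culture, a 1.83-fold rise (log2 change 0.87 ± 0.22, adjusted p = 0.0298; 0.0763 without mono-culture 5). Sparc, a matrix protein that binds collagen, was uncalled at 0.47 (adjusted p = 0.128), and passed with the replicate block (0.0399). Contractile and myofibroblast genes had 0 of 21 members called in either direction, with a median of -0.06; Tagln, an actin-binding protein of contractile cells, had 694, 2734, 729, 2129 and 2004 CPM in co-culture, against 1093, 2292, 846, 2206 and 1729 CPM in mono-culture. Its libraries ranged over several-fold within both groups (adjusted p = 0.987).

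Proteases and their inhibitors had 1 of 22 members higher and 3 lower. Mmp9, a gelatinase, had 6.61, 28.6, 8.97, 22.1 and 53.1 CPM in co-culture, against 2.68, 4.15, 1.52, 0.971 and 2.71 CPM in mono-culture. It rose with no overlap, at low levels (log2 change 3.27 ± 0.62, adjusted p = 0.00612), and the co-cultured macrophages held 1.49 CPM. Ctsk, the collagen-degrading cathepsin K, had 205, 192, 257, 143 and 288 CPM in co-culture, against 477, 428, 634, 409 and 555 CPM in mono-culture. It fell by 1.21 on the log2 scale (adjusted p = 0.0101). Serpine2, an inhibitor of thrombin and plasminogen activators, had 215, 118, 138, 152 and 171 CPM in co-culture, against 284, 301, 415, 269 and 344 CPM in mono-culture. It fell by 1.02 (adjusted p = 0.00238). Mmp13, a collagenase, had 2.36, 0, 8.97, 0 and 0.302 CPM in co-culture, against 50.98, 7.51, 59.97, 3.89 and 9.02 CPM in mono-culture. Its groups overlapped and its call (log2 change -3.54 ± 0.95, adjusted p = 0.0453) was lost in 7 of 10 fits that left out 1 library, with the highest adjusted p at 0.114 without mono-culture 3. Timp1, an abundant inhibitor of metalloproteinases, was uncalled (log2 change 0.04 ± 0.27, adjusted p = 0.967).

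In the TGF-beta pathway, a main driver of matrix production, the ligand gene Tgfb1 was lower and 2 of 21 tested members were higher, with a list median of 0.04. Tgfb1 had 45.6, 55.8, 45.2, 64.4 and 36.8 CPM in co-culture, against 90.6, 92.5, 108, 87.7 and 65.9 CPM in mono-culture. The groups did not overlap (log2 change -0.84 ± 0.17, adjusted p = 0.00749). Ltbp2, a matrix protein of the family that binds latent TGF-beta, had 168, 318, 89.7, 233 and 136 CPM in co-culture, against 44.3, 88.5, 46.9, 36.9 and 69.9 CPM in mono-culture. It rose 3.29-fold (log2 change 1.72 ± 0.30, adjusted p = 0.00290). Ccn1, a matricellular protein gene, rose 1.67-fold (log2 change 0.74 ± 0.17, adjusted p = 0.0200; 0.0543 without mono-culture 5). Among 26 Wnt and BMP pathway genes, 2 passed, both lower: Mgp and Grem1, described above, each of which binds BMP ligands. The list's median was 0.26, and 0 members were called higher. Fstl1, the most abundant uncalled member, was at 0.64 (adjusted p = 0.0996; with the replicate block 0.0337).

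Inflammatory genes were among those higher in co-culture. Of 20 NF-kB feedback and acute-phase genes 6 rose and 0 fell, with a median of 0.57; 3 of the 6 (C3, Saa3 and Nfkbia) were macrophage-rich. C3, the central component of complement, had 345, 53.8, 161, 62.4 and 95.7 CPM in co-culture, against 17.2, 16.6, 17.2, 5.10 and 19.6 CPM in mono-culture. The groups did not overlap, at 9.47-fold (log2 change 3.24 ± 0.48, adjusted p = 0.000868). At its mean over co-cultures, the macrophage share would bring 2.41 CPM of C3 to a library, and the mean difference between the groups was 128 CPM. Co-cultures 1 and 3, where C3 was highest, also had the highest macrophage shares (2.26% and 2.35%, against 0.680% to 0.962% in the others). A link between C3 and the share was not tested. Saa3, an acute-phase apolipoprotein made by inflamed fibroblasts and macrophages, had 296, 46.4, 328, 133 and 118 CPM in co-culture, against 45.6, 11.5, 49.97, 18.7 and 29.8 CPM in mono-culture. Only co-culture 2 lay inside the mono-culture range, and the rise was 5.92-fold (log2 change 2.57 ± 0.47, adjusted p = 0.00522), with 11.5 CPM expected from the macrophage share. Nfkbia, the inhibitor that NF-kB induces against itself, had 89.99, 118, 118, 157 and 144 CPM in co-culture, against 65.5, 58.1, 43.2, 59.01 and 68.1 CPM in mono-culture. It rose 2.13-fold without overlap (log2 change 1.09 ± 0.18, adjusted p = 0.00238). The other 3 were Birc3, an inhibitor of cell death (log2 change 0.87 ± 0.17, adjusted p = 0.00599), Relb (log2 change 0.61 ± 0.13, adjusted p = 0.0121; with the replicate block 0.0795) and Nfkb2 (log2 change 0.58 ± 0.15, adjusted p = 0.0384; 0.0987 without co-culture 2), a pair of NF-kB subunit genes. Leaving out 1 library ended the call of Nfkb2 in 7 of 10 fits. Ptx3, an abundant acute-phase gene, was uncalled (log2 change 0.37 ± 0.48, adjusted p = 0.755). Without libraries 2 and 4 the list had 3 members higher and a median of 0.73.

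Chemokine and cytokine genes had 4 of 25 members higher, 3 of them macrophage-rich, and 1 lower, Il1rn. Cxcl10, a chemokine that draws T cells, had 6.61, 2.96, 9.93, 3.77 and 6.34 CPM in co-culture, against 2.91, 1.58, 0.869, 1.70 and 1.58 CPM in mono-culture. It rose 3.38-fold at low levels (log2 change 1.76 ± 0.39, adjusted p = 0.0170; with the replicate block 0.0707). Cxcl16, a chemokine anchored in the membrane, had 30.4, 23.96, 58.3, 30.8 and 29.9 CPM in co-culture, against 19.2, 15.4, 23.9, 16.3 and 15.3 CPM in mono-culture. Its rise (log2 change 0.94 ± 0.21, adjusted p = 0.0170) stood beside 7.31 CPM expected from macrophages, and after that share was subtracted the adjusted p was 0.105 (with nothing subtracted 0.0503 without mono-culture 5). Il1b, the inflammatory cytokine interleukin 1 beta, had 1.42, 1.98, 0.961, 2.61 and 2.11 CPM in co-culture, against 0.224, 0, 0, 0 and 0 CPM in mono-culture. Its co-culture levels lay under 3 CPM, its call ended when the macrophage share was subtracted (adjusted p = 0.109), and a fold is not given because only mono-culture 1 held any count. Ccl20, the other member called, had 0.315, 1.23, 0.320, 0.581 and 1.51 CPM in co-culture and 0 to 0.224 CPM in mono-culture, and its call was lost in 7 of 10 fits that left out 1 library (0.107 without co-culture 2). Cfb, complement factor B, had 136, 19.3, 142, 27.9 and 70.9 CPM in co-culture, against 11.4, 13.4, 30.4, 17.97 and 18.04 CPM in mono-culture. Co-cultures 1, 3 and 5 were high, and co-cultures 2 and 4 lay within the mono-culture range (log2 change 2.12 ± 0.51, adjusted p = 0.0254; with the replicate block 0.107; 0.0663 without co-culture 1). Complement genes as a list had 2 of 15 members higher, C3 and Cfb, with a median of 0.60. The complement inhibitor gene Serping1 was uncalled at 1.09 (adjusted p = 0.0985) and passed with the replicate block (0.0421).

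Promoters of Nfkbia and Cxcl10 are shown because both genes were called higher and each is a known NF-kB target. Cxcl10 belongs to the chemokine and cytokine list and not to the NF-kB list counted below. The 250 bases before the annotated start were taken from RefSeq (build GRCm38.p6) and searched on both strands for a form of the NF-kB motif (GGG, then any 3 bases, then TTCC), with matches in capitals.
Nfkbia (chr12:55492648-55492897, minus strand): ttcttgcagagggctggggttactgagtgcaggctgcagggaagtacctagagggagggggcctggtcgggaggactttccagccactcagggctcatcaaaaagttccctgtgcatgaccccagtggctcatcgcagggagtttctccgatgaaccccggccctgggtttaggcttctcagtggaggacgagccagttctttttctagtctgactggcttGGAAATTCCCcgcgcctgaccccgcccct
Cxcl10 (chr5:92348890-92349139, minus strand): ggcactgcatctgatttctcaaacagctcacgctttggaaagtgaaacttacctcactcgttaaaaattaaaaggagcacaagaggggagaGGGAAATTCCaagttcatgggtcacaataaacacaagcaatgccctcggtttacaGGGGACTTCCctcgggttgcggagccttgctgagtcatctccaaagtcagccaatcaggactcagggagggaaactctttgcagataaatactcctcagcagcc
Nfkbia held 1 match and Cxcl10 held 2. Of all 32851 promoters of this length, 4.65% held a match. Of the 20 tested genes of the NF-kB list, 14 had a promoter in the table and 3 of these held a match, Nfkbia and Nfkb2 among the 5 called and Tnfaip3 among the uncalled. A gene counted if any of its promoters held a match, whereas the 4.65% is over single promoters. A match is a description of the letters and not evidence of binding.

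Of 15 genes for antigen presentation on MHC class I, 3 rose, with a median of 0.44. Psmb8, an immunoproteasome subunit, had 77.4, 114, 134, 121 and 109.9 CPM in co-culture, against 55.01, 62.6, 49.5, 72.6 and 43.8 CPM in mono-culture. It rose 1.96-fold (log2 change 0.97 ± 0.18, adjusted p = 0.00522). Tap1, which carries peptides into the endoplasmic reticulum, had 64.5, 46.7, 62.5, 49.6 and 44.97 CPM in co-culture, against 35.8, 34.6, 30.2, 35.7 and 34.96 CPM in mono-culture. It rose 1.57-fold with no overlap (log2 change 0.65 ± 0.13, adjusted p = 0.00992). H2-D1, a class I heavy chain, had 688, 497, 1161, 502 and 737 CPM in co-culture, against 439, 403, 454, 409.6 and 341 CPM in mono-culture. Its call (log2 change 0.81 ± 0.20, adjusted p = 0.0254) ended with the replicate block (0.0707), with the macrophage share subtracted (adjusted p = 0.0677) and in 1 fit that left out a library (0.0751 without mono-culture 5). Class I genes share sequence, so counts of H2-D1 may be split with relatives. Among 28 interferon-stimulated genes only Ifi27l2a passed, with a list median of 0.37. Ifi27l2a had 109, 46.7, 193, 55.1 and 92.7 CPM in co-culture, against 33.3, 26.1, 41.1, 25.01 and 15.3 CPM in mono-culture. Its rise was 3.52-fold (log2 change 1.81 ± 0.34, adjusted p = 0.00599), of which the macrophage share would bring 19.9 CPM. Ifitm3, an abundant antiviral membrane protein gene, was uncalled (log2 change 0.30 ± 0.18, adjusted p = 0.456).

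Genes of the hypoxia response rose for 4 of 25 glycolysis and hypoxia members, with 0 lower and a median of 0.36. Car9, a carbonic anhydrase induced under low oxygen, had 18.1, 22.7, 27.5, 20.03 and 18.1 CPM in co-culture, against 4.25, 6.72, 5.00, 7.28 and 7.89 CPM in mono-culture. It rose 3.40-fold without overlap (log2 change 1.77 ± 0.34, adjusted p = 0.00611). Egln3, a prolyl hydroxylase that marks hypoxia-inducible factors for degradation, had 46.6, 60.01, 73.03, 64.7 and 49.2 CPM in co-culture, against 26.6, 27.1, 33.7, 29.1 and 27.97 CPM in mono-culture. The lowest co-culture was above the highest mono-culture, at 2.03-fold (log2 change 1.02 ± 0.18, adjusted p = 0.00284). Slc16a3, which exports lactate, had 820.0, 1189, 1304, 820.3 and 1017 CPM in co-culture, against 712, 753, 672, 626 and 622 CPM in mono-culture. Its 1.52-fold rise (log2 change 0.61 ± 0.16, adjusted p = 0.0435) did not pass with the replicate block (0.0503) and was lost in 8 of 10 fits that left out 1 library (0.107 without mono-culture 5). Pdk1, a kinase that holds pyruvate back from mitochondria, was at 0.88 (adjusted p = 0.0495; with the block 0.0612; 0.120 without mono-culture 5). The Pdk1 call was lost in 7 of 10 fits that left out 1 library. The glycolytic enzyme gene Pkm had 2416, 3849.7, 3338, 4035 and 3649 CPM in co-culture, against 2732, 3272, 3066, 4407 and 3487 CPM in mono-culture. It was uncalled (log2 change 0.03 ± 0.16, adjusted p = 0.961), and 0 of 23 nuclear genes of oxidative phosphorylation passed, with a median of -0.15. Cox4i1, the common isoform of the subunit whose hypoxia-responsive form rose, was at -0.04 (adjusted p = 0.929). Without libraries 2 and 4 the glycolysis and hypoxia list had 1 member higher and a median of 0.38.

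Promoters of Car9 and Egln3 are shown for the same reason, as known targets of hypoxia-inducible factors, with matches to the core motif ACGTG on either strand in capitals.
Car9 (chr4:43506776-43507025, plus strand): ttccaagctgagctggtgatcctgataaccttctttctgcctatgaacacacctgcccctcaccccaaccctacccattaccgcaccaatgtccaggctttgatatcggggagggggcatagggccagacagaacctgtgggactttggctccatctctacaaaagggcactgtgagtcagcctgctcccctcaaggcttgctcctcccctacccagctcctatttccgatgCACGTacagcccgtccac
Egln3 (chr12:54203875-54204124, minus strand): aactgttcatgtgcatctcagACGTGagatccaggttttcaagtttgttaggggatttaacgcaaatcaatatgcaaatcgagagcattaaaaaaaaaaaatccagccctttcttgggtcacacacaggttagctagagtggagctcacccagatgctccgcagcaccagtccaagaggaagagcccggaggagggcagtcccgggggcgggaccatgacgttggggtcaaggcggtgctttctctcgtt
Each held 1 match, and of all 32851 promoters 16.6% held at least 1. Of the 24 list members with a promoter in the table, 15 held a match: 3 of the 4 called members (Slc16a3, Car9 and Egln3) and 12 of the 20 others. Here too a gene counted if any of its promoters held a match, whereas the 16.6% is over single promoters.

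Lysosome and phagocytosis genes had 5 of 24 members lower, 0 higher and a median of -0.32. Lamp1, a major protein of the lysosomal membrane, had 993, 1032, 1029, 1014 and 932 CPM in co-culture, against 1502, 1443, 1682, 1381 and 1503 CPM in mono-culture. The groups did not overlap (log2 change -0.59 ± 0.10, adjusted p = 0.00238), although macrophages would add 50.5 CPM. Atp6v0d1, a subunit of the proton pump that acidifies lysosomes, had 168, 207, 205, 201 and 221 CPM in co-culture, against 271, 267, 321, 338 and 334 CPM in mono-culture. It fell by 0.61 on the log2 scale (adjusted p = 0.00270). Gla, which cleaves galactose from glycolipids, was at -1.22 (adjusted p = 0.0237; 0.0627 without mono-culture 3) and Sqstm1, an autophagy receptor, at -0.44 (adjusted p = 0.0437; with the replicate block 0.0704; 0.0996 without mono-culture 4). The call of Sqstm1 was lost in 9 of 10 fits that left out 1 library. Lrp1, an endocytic receptor and the most abundant uncalled member, was at -0.02 (adjusted p = 0.971). Without libraries 2 and 4, 3 members were lower and the median was -0.30.

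Of the 4 genes called in the stress lists, 3 were lower. Hmox1, which degrades haem, had 204, 325, 232, 261 and 288 CPM in co-culture, against 532, 494, 656, 539.6 and 791 CPM in mono-culture. It fell by 1.20 on the log2 scale with no overlap (adjusted p = 0.000704), and without libraries 2 and 4 its log2 change was -1.43 (adjusted p = 0.00245). With Gsta4 it made up the 2 of 19 NRF2 and oxidative stress genes called, both lower. Ddit3, a transcription factor of the unfolded protein and integrated stress responses, had 255, 202, 176, 253 and 205 CPM in co-culture, against 417, 376, 395, 354 and 476 CPM in mono-culture. It fell by 0.89 (adjusted p = 0.00536) and was the 1 of 23 members of its list that passed. Hspa1a, an inducible heat shock protein with a near-identical neighbour gene, had 19.2, 26.4, 14.7, 14.2 and 21.7 CPM in co-culture, against 8.94, 10.5, 8.26, 9.23 and 7.22 CPM in mono-culture. It rose 2.18-fold (log2 change 1.13 ± 0.20, adjusted p = 0.00335), as 1 of 26 immediate early and heat shock genes.

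Lipid genes went both ways, with 3 of 17 adipocyte and lipid storage members higher, 2 of them macrophage-rich, and 1 lower. Plin2, which coats lipid droplets, had 72.5, 87.9, 91.9, 81.3 and 84.8 CPM in co-culture, against 139, 138, 124, 158 and 132 CPM in mono-culture. It fell by 0.72 on the log2 scale (adjusted p = 0.000868). Fabp5, a fatty acid carrier, had 137, 179.8, 170.1, 193 and 193 CPM in co-culture, against 96.8, 83.8, 60.8, 93.2 and 73.98 CPM in mono-culture. It rose 2.14-fold (log2 change 1.09 ± 0.21, adjusted p = 0.00603). Fabp4, a fatty acid carrier of adipocytes and capillaries, rose 2.51-fold with overlap (log2 change 1.33 ± 0.31, adjusted p = 0.0213; 0.0586 without mono-culture 5). Apoe, an apolipoprotein, had 1313, 548, 1064, 762 and 676 CPM in co-culture, against 431, 96.8, 297, 76.2 and 192 CPM in mono-culture. Of its mean rise of 654 CPM, the macrophage share would bring 427 CPM (log2 change 2.00 ± 0.47, adjusted p = 0.0220; 0.0592 without mono-culture 5). Cholesterol and fatty acid synthesis genes had 0 of 26 members called, with a median of -0.02.

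Cd34, a surface sialomucin of adventitial fibroblasts and endothelial cells, was the 1 of 24 fibroblast subset genes that passed. It had 36.7, 5.68, 28.5, 12.2 and 42.3 CPM in co-culture, against 3.58, 3.36, 3.91, 2.91 and 9.02 CPM in mono-culture. Co-culture 2 lay within the mono-culture range and the rise was 5.49-fold (log2 change 2.46 ± 0.49, adjusted p = 0.00870). Endothelial markers, of which 1 of 14 (Tie1) was called, were also higher on average: their mean level as log2(CPM + 0.5) was 1.61 ± 0.53 in co-culture and 0.85 ± 0.41 in mono-culture (SD, n = 5 each; exact two-sided permutation p = 0.0397, not adjusted over the 9 marker lists; 0.125 with same-numbered libraries paired, higher in 4 of 5 pairs), and their summed level was 168 to 214 CPM in co-culture and 154 to 235 CPM in mono-culture. Cdh5, a defining endothelial gene, ranged from 0.320 to 6.10 CPM in co-culture and from 0 to 2.46 CPM in mono-culture. The part of endothelial cells in Cd34, Fabp4 and Ecscr was not tested. Notch3, a receptor known from pericytes, had 61.99, 55.3, 45.8, 60.4 and 35.6 CPM in co-culture, against 28.2, 23.3, 14.99, 18.7 and 17.4 CPM in mono-culture. It rose with no overlap (log2 change 1.34 ± 0.19, adjusted p = 0.000868), while the other pericyte markers in the list were uncalled.

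On the list of genes through which fibroblasts and macrophages signal to each other, 0 of 31 tested members were called, with a median of 0.03. With 2.36% higher and 1.29% lower over all genes tested, few calls would be due in a list of this size. Secreted signals outside the list, such as Rarres2 and Tgfb1, were called. Csf1, the macrophage growth factor, had 932, 1628, 858, 1219 and 1272 CPM in co-culture, against 1050.3, 1331, 1110.2, 1240.1 and 1050.0 CPM in mono-culture. The ranges overlapped almost wholly (log2 change 0.03 ± 0.20, adjusted p = 0.965). Il34, the other ligand of the CSF1 receptor, had 11.3, 5.19, 12.5, 12.5 and 7.55 CPM in co-culture, against 6.26, 4.35, 6.08, 4.61 and 7.89 CPM in mono-culture. It did not pass (log2 change 0.75 ± 0.30, adjusted p = 0.202). Pdgfra and Pdgfrb, the receptors for platelet-derived growth factors, were at 0.66 ± 0.29 and -0.49 ± 0.21 on the log2 scale (adjusted p = 0.247 and 0.246). Pdgfrb had 389, 440.1, 383, 421 and 304 CPM in co-culture, against 589.7, 561, 618, 435 and 509.5 CPM in mono-culture. Only co-culture 2 exceeded the lowest mono-culture. Hbegf, a ligand of the EGF receptor, was uncalled (log2 change 0.74 ± 0.52, adjusted p = 0.520) and stood at 117 CPM in co-culture 4 with 11.5 to 30.9 CPM in the other co-cultures and 10.9 to 34.98 CPM in mono-culture. Cd63, a receptor for TIMP1, was at -0.29 ± 0.14 (adjusted p = 0.326).

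Cell-cycle genes had 0 of 35 members called and a median of 0.41, which was 0.23 without libraries 2 and 4. Ccnd1, cyclin D1, had 84.6, 231, 61.2, 473 and 154 CPM in co-culture, against 298, 277, 44.97, 295 and 161 CPM in mono-culture. Libraries 3 were low in both groups and co-culture 4 was high, so the spread within groups exceeded the difference between them (log2 change -0.10 ± 0.52, adjusted p = 0.954). Inhibitors of cyclin-dependent kinases and p53 targets had 0 of 19 members called; Cdkn1a was at -0.11 ± 0.21 (adjusted p = 0.856).

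Macrophage-rich genes made up 105 of the 293 higher genes and were led by C1qb, Tyrobp and C1qa, all known from macrophages. C1qa, a chain of the complement C1q complex, had 124, 49.6, 139, 61.8 and 60.4 CPM in co-culture, against 31.8, 0.395, 1.30, 0 and 0 CPM in mono-culture. Mono-culture 1 was the only mono-culture over 2 CPM (log2 change 3.70 ± 0.95, adjusted p = 0.0367; with the replicate block 0.0536; 0.0844 without mono-culture 3). C1qb (log2 change 3.82 ± 0.96, adjusted p = 0.0314; block 0.0593; 0.0782 without mono-culture 5) and Tyrobp, a signalling adaptor (log2 change 3.75 ± 0.90, adjusted p = 0.0252; block 0.0602; 0.0612 without mono-culture 4), had the same pattern over libraries. The macrophage share would bring 104 CPM of C1qa, more than its mean rise of 80.2 CPM. It would bring over 50% of the mean rise for 69 of the 105 genes and under 20% for 21, with C3, Saa3 and Nfkbia among these 21. After the share was subtracted from each library, with counts under 0 set to 0, 33 of the 105 were still called higher. C1qb was among them (log2 change 9.45, adjusted p = 0.00950), although the share would bring 80.9% of its rise. A call that remained therefore does not separate fibroblast from macrophage transcripts. Fewer cells of a type and less RNA per cell cannot be told apart in bulk libraries.

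**Figure D4:**
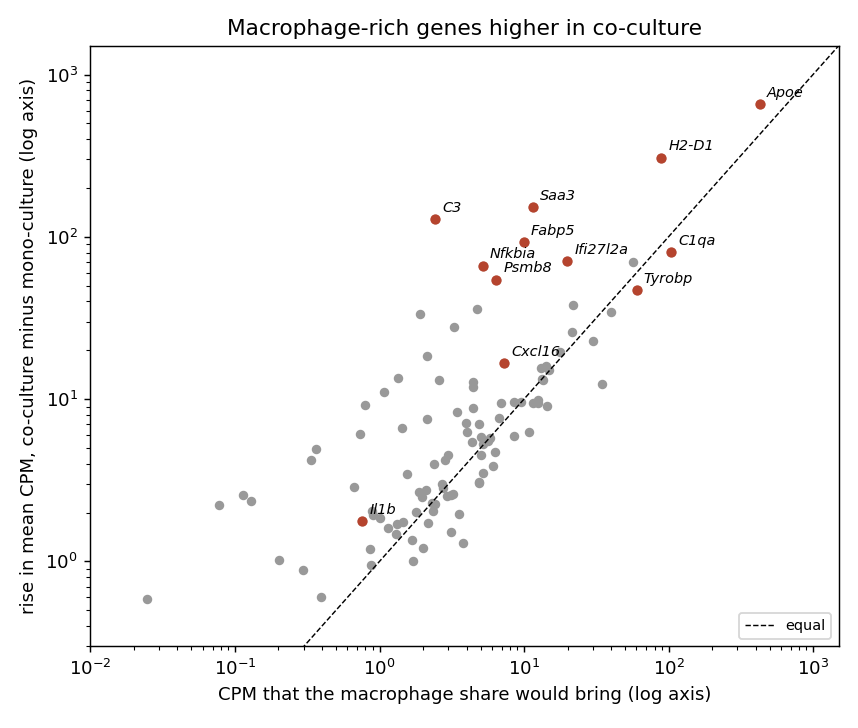
Rise in mean CPM (co-culture minus mono-culture) of the 105 macrophage-rich genes called higher, against the CPM that the estimated macrophage share would bring, both on log axes. Points are genes, named genes in red, and the dashed line marks equality: C1qa and Tyrobp lie below it and C3, Saa3 and Nfkbia far above.

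The mammary response was set against those of lung and fat fibroblasts in the same fit, with no library shared. Its size differed from that of lung for 12 genes (0.0966% of those tested; 753 at an unadjusted p under 0.05) and from that of fat for 3 (0.0242%; 904 unadjusted). In lung fibroblasts alone co-culture raised 145 genes (1.17%) and lowered 18 (0.145%), and in fat fibroblasts 5 (0.0403%) and 20 (0.161%), with fewer libraries in each. Of the 293 genes higher in mammary co-culture, 266 had the same sign in lung and 248 in fat, and 56 and 2 were also called there. These counts include the 105 macrophage-rich genes, so the agreement is not that of fibroblast transcripts alone. Of the 160 lower genes 137 and 139 had the same sign, and 5 and 9 were also called. Over all genes tested, the sign was the same for 60.4% in lung and 56.4% in fat. Egln3 passed in all 3 organs, at 1.02 ± 0.18 in mammary (adjusted p = 0.00284), 1.52 ± 0.23 in lung (adjusted p = 0.00125) and 1.55 ± 0.27 in fat fibroblasts (adjusted p = 0.0199) on the log2 scale.

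The log2 change of Grem1 was -2.23 ± 0.46 in mammary (adjusted p = 0.0104), 1.84 ± 0.55 in lung (adjusted p = 0.128) and -0.73 ± 0.62 in fat fibroblasts (adjusted p = 0.802). The mammary response was below that of lung (difference -4.07 ± 0.72, adjusted p = 0.0280). Cxcl14, a chemokine of resting epithelia and fibroblasts, was at -0.08 ± 0.25 in mammary (adjusted p = 0.922), 3.37 ± 0.37 in lung (adjusted p = 9.44e-05) and 0.44 ± 0.37 in fat fibroblasts (adjusted p = 0.799). Mammary fibroblasts held 767 ± 257 CPM in co-culture and 809.8 ± 284 CPM in mono-culture (SD, n = 5 each) with no change called, and the difference from lung was -3.45 ± 0.43, adjusted p = 0.00264. The responses of other genes that fell in mammary co-culture were also below those of lung: Lmcd1 (difference -2.42 ± 0.36, adjusted p = 0.00613), Inhbb (-2.36 ± 0.43, adjusted p = 0.0294) and Nrp2 (-2.06 ± 0.32, adjusted p = 0.01003), none of which was called in lung. Serpine2 was at -1.02 ± 0.17 in mammary (adjusted p = 0.00238), 1.00 ± 0.24 in lung (adjusted p = 0.0416) and -1.07 ± 0.24 in fat fibroblasts (adjusted p = 0.0827), opposite in sign between mammary and lung (difference -2.03 ± 0.29, adjusted p = 0.00587). Slc16a3 was at 0.61 ± 0.16 in mammary (adjusted p = 0.0435), 2.29 ± 0.22 in lung (adjusted p = 3.76e-05) and 0.97 ± 0.24 in fat fibroblasts (adjusted p = 0.107), with a higher response in lung (difference -1.69 ± 0.27, adjusted p = 0.01003). Cd14, a co-receptor for bacterial lipopolysaccharide that is macrophage-rich here, was the 1 gene with a higher response in mammary than in lung fibroblasts (2.44 ± 0.43, adjusted p = 0.0280); with the macrophage share subtracted its mammary change was 0.33 (adjusted p = 0.654). The other 4 genes that differed from lung, Gpr176, Jph2, Pdlim2 and Rasa4, were uncalled in mammary co-culture. From fat, 3 genes differed: Trp53i11 at 1.11 ± 0.27 in mammary (adjusted p = 0.0253), 0.12 ± 0.31 in lung (adjusted p = 0.990) and -1.81 ± 0.34 in fat fibroblasts (adjusted p = 0.0305) (difference 2.92 ± 0.43, adjusted p = 0.0184), and the endothelial genes Tie1 and Dll4, both with a mean under 1 CPM in mammary co-culture. Their mammary calls ended without mono-culture 5 (adjusted p = 0.0929 for Tie1 and 0.0689 for Dll4) and, in several fits each, without another library. The mammary change of Trp53i11 did not pass with the replicate block (0.0929; 0.0668 without mono-culture 3). Without libraries 2 and 4 of both mammary groups, 7 genes differed from lung and 0 from fat. Without lung mono-culture 3, whose labels name both lung and the mammary fat pad, 6 differed from lung. Which of the genes named above are among these 6 is not reported here.

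**Figure D5:**
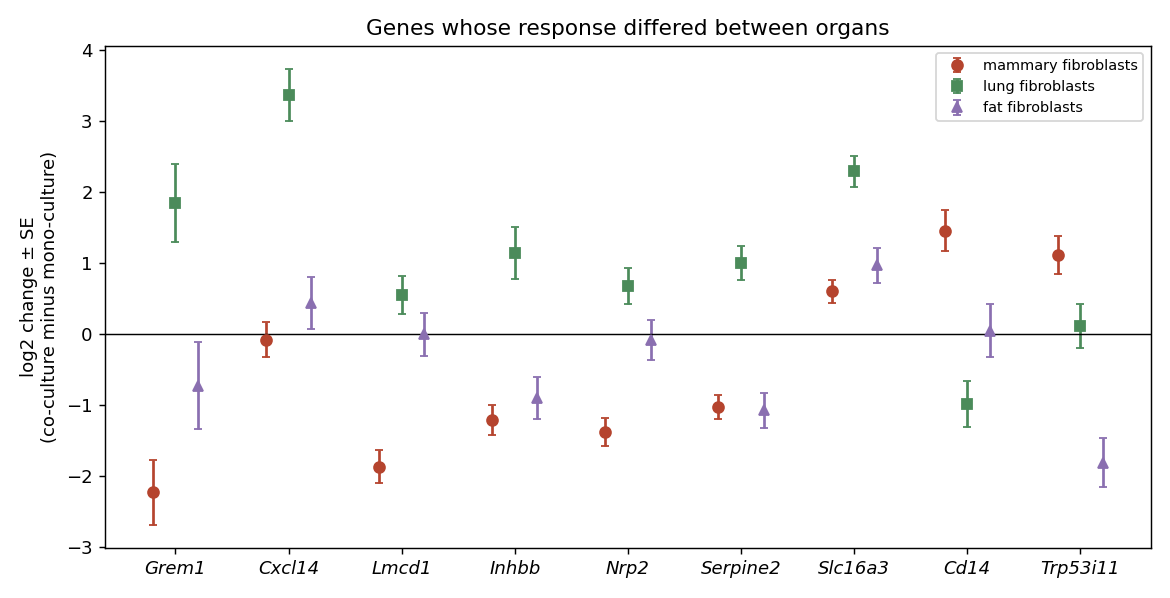
Log2 change (co-culture minus mono-culture) with its standard error for 9 genes whose response differed between mammary fibroblasts (red circles) and lung (green squares) or fat fibroblasts (purple triangles). Grem1, Lmcd1, Inhbb, Nrp2 and Serpine2 lie below 0 in mammary and above 0 in lung fibroblasts.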

How the data were processed

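Sorted fibroblasts and macrophages were profiled by 3′-end sequencing of polyadenylated RNA. The deposited tables hold raw read counts per gene; bcl2fastq, STAR 2.4.2a, HTSeq and the build mm10 are named in the submitters' processing notes, and no annotation, strand setting or use of molecular identifiers was given in the sources used here. The authors' deposited fibroblast table lists only genes that reached 6 counts in at least 1 fibroblast library. Samples were grouped by their labels. Every per-sample column could be assigned to a sample, except a fat mono-culture column whose number matches no title of its group. That column was assigned to the group by its name.

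The 21 fibroblast libraries were fitted together with 1 coefficient per group in edgeR 4.0.16 (R 4.3.3; TMM normalization, filterByExpr with a minimum count of 10, robust quasi-likelihood F-test, Benjamini-Hochberg adjustment over 12421 genes, threshold 0.05). CPM values are deposited counts divided by the TMM-scaled library size. Differences between organs were tested as contrasts of the same fit. The biological coefficient of variation was 29.1%. Depths of 3304605 to 6256880 counts put 3 counts at 0.479 to 0.908 CPM, a limit that covers counting error only. No 2 libraries of a mammary group agreed within sampling noise (chi-square per degree of freedom 8.20 to 72.2 over 20 pairs). Each script that fits a model across genes was tested on simulated data.

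The macrophage share of a library was the median, over 23 markers, of its CPM divided by the CPM in macrophages from mammary co-culture (n = 4). Genes without a row in the macrophage table were not analysed there and had nothing subtracted. Gene positions are from GENCODE (GRCm38). Named genes came from called genes that averaged 20 CPM or more and whose groups did not overlap. They were the 10 largest rises outside the macrophage-rich genes, the 4 largest rises within them, and the 10 largest falls. To these were added, for each programme list, its 3 called members of lowest adjusted p and its most abundant uncalled one; for each organ difference, up to 4 genes in each direction; and a fixed set of signalling genes, of which Areg is not analysed here. Predicted, ribosomal protein and mitochondrial genes were left out, and a few genes that the rule names are not reported here. Members and lists were chosen with earlier results of these data known. Genes named outside the rule (Col12a1, Mmp13, Birc3, Relb, Nfkb2, Ccl20, Pdk1, Apoe, Gla, Sqstm1, Notch3, Tie1, Dll4, Gpr176, Jph2, Pdlim2, Rasa4, H3f3b, Krt8, Krt14, Krt19, Cdh5 and Tnfaip3) were chosen after their values were seen.

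Replicate numbers come from the sample titles. Deviations of same-numbered co-culture and mono-culture libraries from their group means correlated at 0.410, 0.488, 0.559, 0.409 and 0.295 across genes for replicates 1 to 5. Co-culture 1, however, correlated more with mono-culture 3 (0.498), and mono-culture 4 more with co-culture 2 (0.455), than with the library of its own number. The labels state no pairing, and the main fit had no block. Fits with the block take the numbers to pair the libraries and are given where they change a call. Alternatives were other size factors, DESeq2 1.42.0, no filter, mammary libraries only with and without the block, leaving out each library, subtracting the macrophage share and a fold threshold. Leaving out libraries 2 and 4 of both groups, a GC offset with the block, and paired tests of the other marker lists were added after seeing the data.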

Additional observations from a re-analysis of the deposited data

Results flagged for a closer look

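Single libraries lay far from the other 4 of their group in 14 of 188 groups of 5 values examined; chance flags about 1 in 20 groups. Mono-culture 1 was the outlying library for 6 of the 14: it held 161 CPM of Rarres2, 18.3 CPM of Tyrobp, 0.224 CPM of Il1b, 12.3 CPM of Trp53i11 and 4.70 CPM of Adgre1, and its macrophage marker level was 3.50 on the log2(CPM + 0.5) scale. It was low for Rarres2 and high for the others, and its macrophage share was 0.725%. Mono-culture 3 was high for Selenbp1 at 14.99 CPM and apart for Tap1 at 30.2 CPM and Cdkn1a at 469 CPM. Mono-culture 4 was low for C3 at 5.10 CPM, and mono-culture 5 was apart for Lama2 at 23.01 CPM and Cd34 at 9.02 CPM. Among co-cultures, library 2 was high for Ccn1 at 1997 CPM and library 3 for Cxcl16 at 58.3 CPM.

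The response to co-culture differed between organs, by the interaction contrast in edgeR, for 9 named genes. Against lung the log2 difference (mammary minus lung) was -4.07 for Grem1, -3.45 for Cxcl14, -2.42 for Lmcd1, -2.36 for Inhbb, -2.06 for Nrp2, -2.03 for Serpine2, -1.69 for Slc16a3 and 2.44 for Cd14. Against fat it was 2.92 for Trp53i11.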

How the results depend on the processing

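The direction of the 60 named genes called held under every alternative in which they could be tested (59 in the fits of mammary libraries only), except for C1qa and Tyrobp with the macrophage share subtracted. There the log2 change was -2.10 (adjusted p = 0.754) for C1qa and 0 (adjusted p = 1) for Tyrobp, and for both the share exceeds the rise. Other size factors, no filter on low counts and DESeq2 kept all 60 calls, and 41 kept their call whichever single mammary library was left out. The counts of genes called moved more. DESeq2 called 505 genes higher, 49 different from lung and 26 different from fat. The 10 mammary libraries alone, without the block, gave 91 higher and 57 lower, and with the replicate block 230 and 142. Pairing by replicate number ended 11 of 59 named calls and left the macrophage marker difference at 3.26 (exact p = 0.0625) and the endothelial one at 0.76 (exact p = 0.125); the block with a GC offset gave 248 higher and 171 lower. Leaving out libraries 2 and 4 of both groups gave 92 higher, 51 lower, 7 different from lung, 0 from fat, and a marker difference of 3.27 (exact p = 0.1, the smallest that 3 against 3 allows). Setting macrophage-rich genes aside left 188 higher, subtracting the macrophage share 219, and requiring a log2 change of at least 1 left 40 lower. Leaving out single libraries gave 165 (without mono-culture 5) to 317 higher, 86 (without mono-culture 2) to 179 lower, 6 to 15 different from lung, 0 to 8 different from fat, and a marker difference of 3.01 to 3.89. Mono-cultures 3 and 4 (190 and 175 higher) and mono-culture 4 (90 lower) also moved a count by over 1.5 times; the lung count fell to 6 without lung co-culture 1, lung mono-culture 3 or mammary mono-culture 2, and to 7 without mammary co-culture 1. The cause of these moves was not tested. Genes near 3 counts per library, such as Il1b and Ccl20, are limited by depth.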
